A study of Xenopus tropicalis with 18 samples.

Results

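The genes described here were high in both the foregut and the hindgut of Xenopus tropicalis embryos, low in the head with pharynx, and reduced in foregut from embryos treated with BMS493. They were chosen from the deposited counts by a fixed rule on group means in CPM, the count of a gene scaled to the total of its library. The rule asked for at least 10 CPM in control foregut and in control hindgut, at least 8 times the head with pharynx mean in each, a foregut to hindgut ratio between 0.5 and 2, and a BMS493 mean of at most 40% of the control foregut mean. Of 28863 genes, 146 met the conditions on the control tissues, and 102 of these also met the BMS493 limit and are the members. The other 44 genes met the same conditions on the control tissues and stayed above the limit.

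The libraries came from wild-type embryos at Nieuwkoop and Faber stage 33, and each was made from 8 pooled explants of mesoderm and endoderm, with 3 libraries in each of 6 groups. Head with pharynx and hindgut controls received 0.1% DMSO, and control foregut received 0.1% DMSO with 1 ng of a mismatch morpholino. Region and injection therefore cannot be told apart in comparisons of control foregut with the other control tissues. Treated foregut received cyclopamine at 40 µM, BMS493 at 100 nM, or 0.1% DMSO with 1 ng of an Rfx6 morpholino, with the drugs present from stage 15 and morpholinos injected at the 2-cell stage at 500 pg per cell. For the drug groups the labels give neither DMSO nor a morpholino, so a drug and the mismatch morpholino cannot be told apart in comparisons of a drug group with control foregut, and in Rfx6 morpholino against cyclopamine the drug and the injection cannot be told apart. No clutch or parent is given, so the spread between libraries may in part be technical.

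Retinoic acid is made from vitamin A in several embryonic tissues, including mesoderm next to the gut, and acts through nuclear receptors that bind DNA and switch target genes on or off. In vertebrate embryos it helps set anterior and posterior identity in the endoderm and is needed for organs that bud from the posterior foregut, such as the pancreas. BMS493 is an inverse agonist that holds retinoic acid receptors in a repressing state. Cyclopamine blocks Smoothened, the membrane protein that passes on Hedgehog signals between gut epithelium and mesenchyme. Rfx6 is a transcription factor of gut and pancreatic endocrine development.

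The files name genes by identifiers of the XBXT10g series without symbols, and 0 of them matched a RefSeq table of 28858 genes. Functions of the members, marker genes of cell types and the Rfx6 transcript itself therefore could not be looked up, and neither the tissue labels nor the action of the drugs could be checked against known genes. Total counts per library lay between 26006163 and 96814679, so 1 CPM stood for at least 26 counts. In each of the 3 treated foregut groups the median gene differed less between replicates 1 and 2 than between other replicate pairs, although by more than counting noise. The mean over genes did not share this order in every group: chi-square per degree of freedom was 3.22 for this pair under BMS493, 32.3 under cyclopamine and 59.9 with the Rfx6 morpholino, where other pairs had 8.98 to 56.9. By the median gene, replicate 3 stood apart in each of the 3 treated groups, as did replicate 2 in control foregut and control hindgut. For BMS493 replicates 2 and 3 the description in the labels gives the first replicate's name instead of their own, and replicate numbers here follow the titles.

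The members ranged from modest to very abundant gut transcripts. In control foregut 87 of 102 had a mean of at least 20 CPM and 44 of at least 100 CPM. The 5 members with the highest TPM made up 58.3 to 66.8% of the summed member TPM in the control foregut libraries, so sums of member TPM mostly follow these few genes. Their part in the summed counts was not computed. All 102 members together held 3.07 ± 0.464% of counts in control foregut libraries and 2.36 ± 0.287% in hindgut libraries (SD, n = 3). The head with pharynx libraries had 0.0882 ± 0.0048% (SD, n = 3). In treated foregut the share was 2.08 ± 0.0958% under cyclopamine, 2.74 ± 0.365% with the Rfx6 morpholino and 0.859 ± 0.207% under BMS493 (SD, n = 3). These totals rest on the rule for the 3 control tissues and BMS493, and only the cyclopamine and Rfx6 morpholino libraries had no part in choosing the members. In bulk tissue, fewer cells of a type and less RNA per cell cannot be told apart.

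In TPM, which scales for transcript length as well as depth, member levels in control foregut ran from 3.41 to 5864 with a median of 43.4. The member with the highest TPM had 6481, 4300 and 6811 TPM in control foregut replicates 1, 2 and 3. It had 4280, 2975 and 4222 TPM in hindgut and 22.3, 26.9 and 40.6 TPM in head with pharynx. Under BMS493 it had 2135, 2104 and 1332 TPM. Its cyclopamine libraries had 4204, 4076 and 4613 TPM and its Rfx6 morpholino libraries 6306, 6082 and 4863 TPM. All BMS493 libraries of this gene lay below every cyclopamine, Rfx6 morpholino and control gut library, while the cyclopamine and Rfx6 morpholino libraries both overlapped the control foregut range, whose lowest value came from replicate 2.

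The next 2 members by TPM had control foregut means of 5498 and 3782 TPM, and the 2 after them had 1086 and 1084 TPM. The 3 highest were among the 100 genes of highest TPM in control foregut, in hindgut, under cyclopamine and with the Rfx6 morpholino. Under BMS493 and in head with pharynx no member was among the 100 highest. Of these 5 the first of the latter pair was lowest under BMS493 relative to control, going from 1076, 1161 and 1022 TPM in control foregut to 177, 169 and 103 TPM under BMS493. The 3 more abundant members had their lowest control foregut value in replicate 2, and this gene had its highest there.

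Head with pharynx levels were low for many members. The head with pharynx mean was under 1 CPM for 55 of 102 members, and 3 members had 0 counts in all 3 head with pharynx libraries, which allows up to 3 counts over the group or 0.0219 CPM. This limit covers counting error only. The member with the highest mean in this tissue reached 277 CPM. Hindgut means lay above the foregut mean for 31 members and below it for 71, with a median of 81.3% of control foregut. Of the 44 other genes 37 had a hindgut mean above the foregut mean, with a median of 148% of control foregut. Their head with pharynx means had a median of 8.18% of control foregut, against 1.76% for the members. These differences between the sets were not tested.

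Under BMS493 the member means had a median of 28.0% of the control foregut mean, with a range from 10.2 to 39.3%. The upper end of this range is set by the rule, and no test is given for this contrast. Transcripts of every member were still detected above the head with pharynx level. In all 102 members every BMS493 library lay above every head with pharynx library. BMS493 means were 12.3 times the head with pharynx mean at the median and 1.99 times at the least. Both groups entered the rule, and no share over all genes was computed. Measured on the span between head with pharynx and control foregut, a median of 25.6% remained.

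The 3 members closest to the BMS493 limit on the inside were at 38.7, 39.3 and 39.3% of control foregut, and the 3 genes closest on the outside were at 40.7, 41.1 and 41.8%. One of the members just inside had 29.8, 3.56 and 32.3 CPM in control foregut replicates 1, 2 and 3 and 10.3, 9.81 and 5.29 CPM under BMS493. For this member alone the BMS493 and control foregut libraries overlapped, through control replicate 2. In the other 101 members every BMS493 library lay below every control foregut library. The BMS493 limit of the rule favours this separation, and no share over all genes was computed.

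The 3 BMS493 libraries were not alike. Replicate 3 was the lowest of the 3 in all 102 members, and the library medians were 32.0, 32.1 and 20.2% of the control foregut mean in replicates 1, 2 and 3. For comparison, replicate 3 was lowest in 41.5% of the 9843 genes with at least 10 CPM in both control foregut and hindgut. The rule limits the mean of these 3 BMS493 libraries and so favours genes with a low library. The 9843 genes were not chosen on BMS493 values. The 44 other genes also had their lowest median in replicate 3, at 35.8% against 54.5 and 55.1%. Without BMS493 replicate 3 the rule would have kept 89 genes, all of them members.

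Genes of the opposite pattern moved with the BMS493 library that stood apart. By the mirrored rule, 199 genes had at least 10 CPM in head with pharynx and at least 8 times both gut means. These genes held 0.440, 0.436 and 0.944% of counts in BMS493 replicates 1, 2 and 3, against 0.0272 to 0.0297% in control foregut and 1.35 to 1.44% in head with pharynx. Of the 199 genes, 49 had 0 counts in all control foregut libraries, 49 in all hindgut libraries and 23 in all cyclopamine libraries. In the BMS493 group and in the Rfx6 morpholino group 0 genes lacked counts in all libraries. The mirrored rule favours low counts in control foregut and hindgut, and depth differed between libraries. In Rfx6 morpholino replicates 1, 2 and 3 the share was 0.0930, 0.0910 and 0.342%, and in cyclopamine libraries 0.0882 to 0.0982%. The part of these genes in the levels of the members was not tested.

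**Figure D1:**
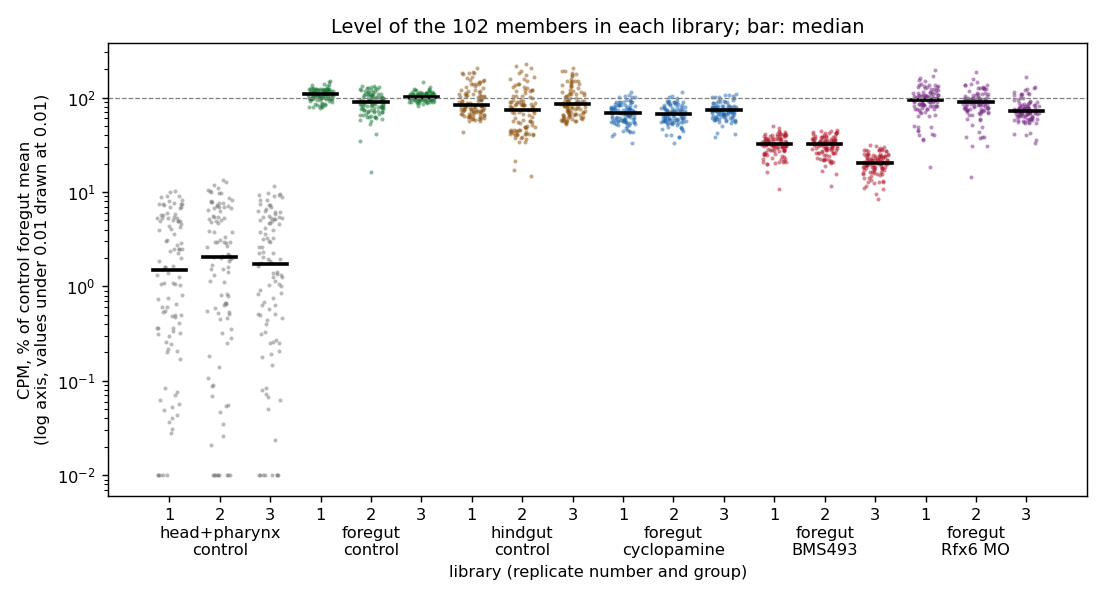
Level of each of the 102 members in each of the 18 libraries, as a percentage of its control foregut mean on a log axis, with 1 point per gene and a bar at the library median. BMS493 medians lie at 32.0, 32.1 and 20.2%, cyclopamine medians at 67.8, 66.2 and 73.1% and Rfx6 morpholino medians at 94.2, 89.2 and 71.9%.

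About as many members were lower under cyclopamine as did not pass the test. Member means under cyclopamine had a median of 68.4% of control foregut, with a range from 35.7 to 111%, and the library medians were 67.8, 66.2 and 73.1%. Of 102 members, all of which passed the filter on low counts, 49 were lower than in control foregut and 0 were higher, where 9.71% of all 18542 genes tested were lower and 10.2% higher (edgeR's quasi-likelihood test at an adjusted p under 0.05). At an unadjusted p under 0.05 the numbers were 67 and 0, where 17 and 17.4% of all genes passed, and DESeq2 called 65 lower and 0 higher, where it called 13.2 and 11.6% of the genes it tested. The median log2 fold change was -0.59 over the members and 0.00 over all genes tested.

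The cyclopamine and control libraries did not overlap in 62 members that were lower and in 1 that was higher, where 13.4 and 24.8% of all genes tested separated in these directions. The 49 called members fell by 0.46 to 1.53 on the log2 scale, and 9 of them at least 2-fold. Of all genes 1.57% fell and 1.83% rose that far. Among the 44 other genes 8 passed as lower and 0 as higher, and their median was -0.38 on the log2 scale. The members were chosen for high values in the same control foregut libraries, so these counts are not independent of the rule, and the difference between the 102 and the 44 genes was not tested. With replicates 1 and 2 of each treated group summed into 1 library, 15 members were lower and 0 higher, where 2.56 and 3.28% of all genes were. The count of lower members was 26 without cyclopamine replicate 1 and 28 without replicate 2, where 4.82 and 4.92% of all genes were lower. It was 32 without control replicate 3 and 62 without control replicate 2, where 8.21 and 11.9% of all genes were lower.

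Most members did not pass the test between the Rfx6 morpholino and control foregut. Member means had a median of 85.8% of control foregut and ranged from 22.7 to 183%, a wider range than under cyclopamine. In this comparison 23 of 102 members were lower and 0 higher, against 8.99 and 8.25% of all genes tested (edgeR's quasi-likelihood test at an adjusted p under 0.05). At an unadjusted p under 0.05 there were 36 lower members and 1 higher, where 15.8 and 15% of all genes passed, and DESeq2 called 33 and 1, where it called 11.3 and 9.87% of the genes it tested. The called members fell by 0.39 to 2.20 on the log2 scale, 10 of them at least 2-fold. Of all genes 1.98% fell and 2.41% rose that far. Libraries of the groups did not overlap in 34 members that were lower and 6 that were higher, where 11.6 and 20.4% of all genes separated.

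In the same libraries 35 of the 44 other genes passed as lower and 1 as higher. Their median log2 fold change was -1.07, and that of the members was -0.26. The difference was not tested, and both sets were chosen through the same control foregut libraries. Rfx6 morpholino replicate 3 was the lowest of its group in 92 members and the highest in 9, where it was lowest in 33.4% of genes at 10 CPM or more. It was also the Rfx6 morpholino library with the largest share of head with pharynx genes, whose part in these values was not tested. Without it 18 members were lower and 1 higher, where 9.65 and 8.36% of all genes were, and the median log2 fold change of the members was -0.14. With replicates 1 and 2 of the treated groups summed, 12 members were lower and 0 higher, where 2.95 and 3.15% of all genes were.

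**Figure D2:**
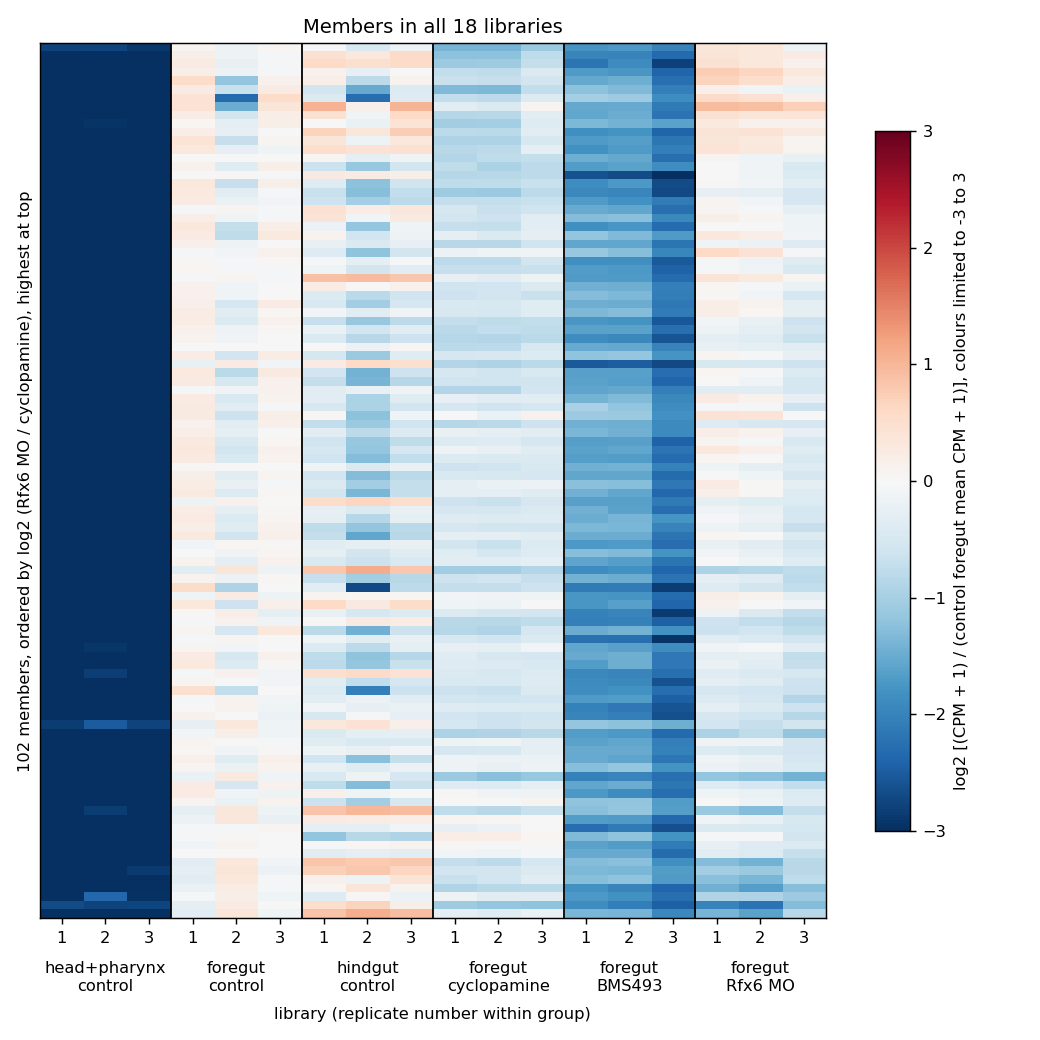
Heat map of the 102 members (rows) in the 18 libraries (columns, grouped), coloured by the log2 ratio of CPM + 1 to the control foregut mean + 1 and ordered by the log2 fold change of Rfx6 morpholino over cyclopamine. The BMS493 columns are blue throughout and darkest in replicate 3, and the Rfx6 morpholino columns pass from above control in the upper rows to below control in the lowest rows.

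Neither the Rfx6 morpholino libraries nor the cyclopamine libraries had a part in choosing the members. Their comparison took its filter, scaling and spread between libraries from a fit that also held control and BMS493 foregut, which entered the rule. It separated the members into 21 that were higher with the morpholino, 5 that were lower and 76 that did not pass the test, where 10.2% of all genes tested were higher and 11.1% lower (edgeR's quasi-likelihood test at an adjusted p under 0.05). The median log2 fold change of Rfx6 morpholino over cyclopamine was 0.28 over the members and 0.00 over all genes, with values from -1.03 to 1.71. Libraries of the 2 groups did not overlap in 45 members that were higher and in 13 that were lower, where 22 and 22.6% of all genes separated. Among the 44 other genes 2 passed as higher and 26 as lower, and their median was -0.57.

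The number of members that passed changed with the libraries used and the fit. With replicates 1 and 2 of each treated group summed, 2 members were higher and 0 lower, where 1.77 and 2.1% of all genes were, and the median was 0.22. At an unadjusted p under 0.05 this summed fit had 15 members higher and 5 lower. The share over all genes was not computed for it, so these counts cannot be set against a background. In the main fit 32 members were higher and 9 lower at that threshold, where 16.8 and 18% of all genes passed. The numbers higher and lower were 8 and 3 without cyclopamine replicate 1 and also without replicate 2, where 5.64 to 5.84% of all genes were higher and 6.49 to 6.71% lower. Without cyclopamine replicate 3 they were 15 and 3, where 7.67 and 8.26% of all genes passed. They were 9 and 2 without Rfx6 morpholino replicate 1 and also without replicate 2, where 5.92 to 6.28% of all genes were higher and 6.12 to 6.42% lower. Without Rfx6 morpholino replicate 3 they were 28 and 6, where 10.2 and 12.1% passed. Fitting these 6 libraries alone, without the control and BMS493 foregut libraries, gave 43 and 9, where 14.8 and 13.6% of all genes passed. DESeq2 gave 31 and 9, where 12.8 and 13% of all genes passed.

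**Figure D3:**
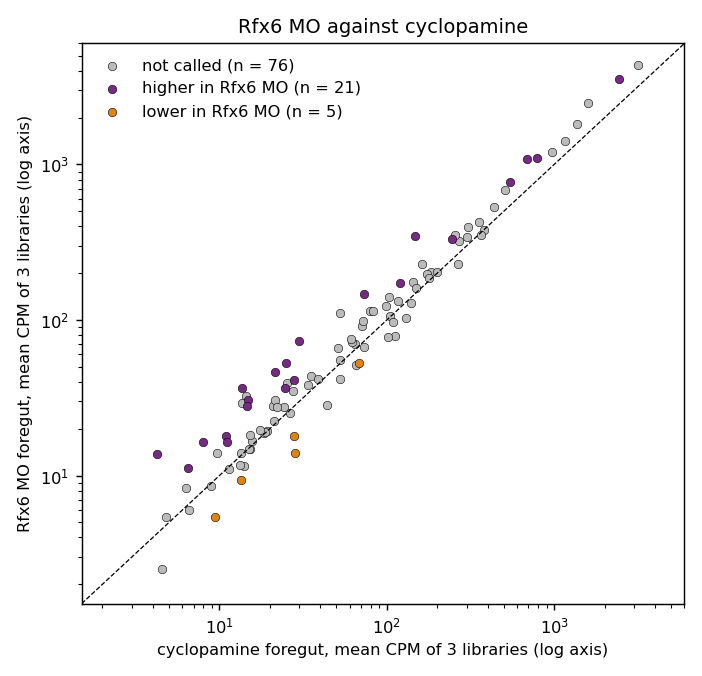
Mean CPM of each member in cyclopamine foregut (x) and in Rfx6 morpholino foregut (y), 3 libraries each, on log axes with the line of equality. Coloured points are the 21 members that were higher and the 5 that were lower with the morpholino at an adjusted p under 0.05, and grey points are the other 76.

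The 21 members that were higher with the morpholino stood at a median of 103% of control foregut in the Rfx6 morpholino group and 60.4% under cyclopamine. Their fold changes ran from 0.43 to 1.71 on the log2 scale, and 9 were at least 2-fold. Of all genes 2.23% rose and 1.85% fell that far. The 5 that were lower stood at a median of 46.8% of control foregut with the morpholino and 81.1% under cyclopamine. Under BMS493 the medians of the higher and lower sets were 26.2 and 28.0% of control foregut. Hindgut levels had a median of 109% of control foregut in the first set and 114% in the second, with the remaining 76 members at 74.3%. Across the 102 members the fold change between the treatments and the hindgut to foregut ratio had Pearson's r = -0.031 and Spearman's rho = 0.008.

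The 2 members with the largest called rise in Rfx6 morpholino over cyclopamine foregut were XBXT10g018826 and XBXT10g001081. XBXT10g018826 had 15.4, 15.1 and 10.6 CPM with the Rfx6 morpholino and 3.89, 3.93 and 4.90 CPM under cyclopamine in replicates 1, 2 and 3. It had 12.6, 10.5 and 12.5 CPM in control foregut, 11.95, 8.37 and 10.5 CPM in hindgut and 2.79, 2.90 and 2.19 CPM under BMS493. In head with pharynx it had 0.889, 0.916 and 0.738 CPM. The morpholino libraries overlapped the control range, whereas every cyclopamine library lay below it and above every BMS493 library. The log2 fold change of Rfx6 morpholino over cyclopamine was 1.71 with an SE of 0.17 (adjusted p = 4.88e-05 by edgeR, n = 3 per group). With replicates 1 and 2 of the treated groups summed it was 1.57 (adjusted p = 0.00905 by edgeR). Cyclopamine over control was -1.53 with an SE of 0.17 (adjusted p = 0.000102 by edgeR). The gene was picked for a difference from cyclopamine, and control foregut entered the rule, so that fall is not independent of either choice.

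XBXT10g001081 had 38.8, 36.6 and 34.9 CPM with the Rfx6 morpholino and 11.9, 11.8 and 16.9 CPM under cyclopamine. Control foregut had 33.0, 26.2 and 28.6 CPM and hindgut 40.4, 37.0 and 44.3 CPM. Under BMS493 it had 6.65, 6.49 and 5.02 CPM, and in head with pharynx 0.0988, 0.448 and 0.0738 CPM. All morpholino libraries lay above all control foregut libraries, but the fold change of 0.29 on the log2 scale with an SE of 0.14 did not pass (adjusted p = 0.185 by edgeR). Against cyclopamine the log2 fold change was 1.46 with an SE of 0.15 (adjusted p = 5.53e-05 by edgeR). With replicates 1 and 2 of the treated groups summed it was 1.35 (adjusted p = 0.009 by edgeR). Cyclopamine over control was -1.16 with an SE of 0.15 (adjusted p = 0.000263 by edgeR). As for XBXT10g018826, this fall from control is not independent of how the gene and the members were chosen.

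The 2 members with the largest called fall were XBXT10g014936 and XBXT10g027018. XBXT10g014936 had 12.44, 10.5 and 18.8 CPM with the Rfx6 morpholino and 28.4, 26.5 and 29.7 CPM under cyclopamine. It had 27.5, 44.1 and 31.3 CPM in control foregut and 62.7, 73.6 and 66.0 CPM in hindgut. Under BMS493 it had 12.7, 12.5 and 8.26 CPM, which overlapped the morpholino libraries, and in head with pharynx 1.23, 1.85 and 1.88 CPM. Cyclopamine and control foregut overlapped for this gene. The log2 fold change of Rfx6 morpholino over cyclopamine was -1.03 with an SE of 0.23 (adjusted p = 0.0116 by edgeR), and it was -0.92 (adjusted p = 0.148) with replicates 1 and 2 of the treated groups summed and -0.95 (adjusted p = 0.0538) without Rfx6 morpholino replicate 1.

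XBXT10g027018 had 5.73, 5.65 and 4.94 CPM with the Rfx6 morpholino and 10.4, 8.95 and 8.93 CPM under cyclopamine. Control foregut had 11.1, 13.3 and 10.5 CPM, hindgut 8.61, 11.9 and 10.2 CPM, BMS493 foregut 2.82, 2.56 and 1.62 CPM and head with pharynx 0.576, 1.49 and 0.627 CPM. Every morpholino library lay between the cyclopamine and the BMS493 libraries. The log2 fold change of Rfx6 morpholino over cyclopamine was -0.78 with an SE of 0.17 (adjusted p = 0.00697 by edgeR), and -0.81 (adjusted p = 0.0868) with replicates 1 and 2 summed. Against control foregut the Rfx6 morpholino gave -1.13 with an SE of 0.17 (adjusted p = 0.000897 by edgeR). This gene was picked for a fall with the morpholino, and control foregut entered the rule, so that value is not independent of either choice.

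**Figure D4:**
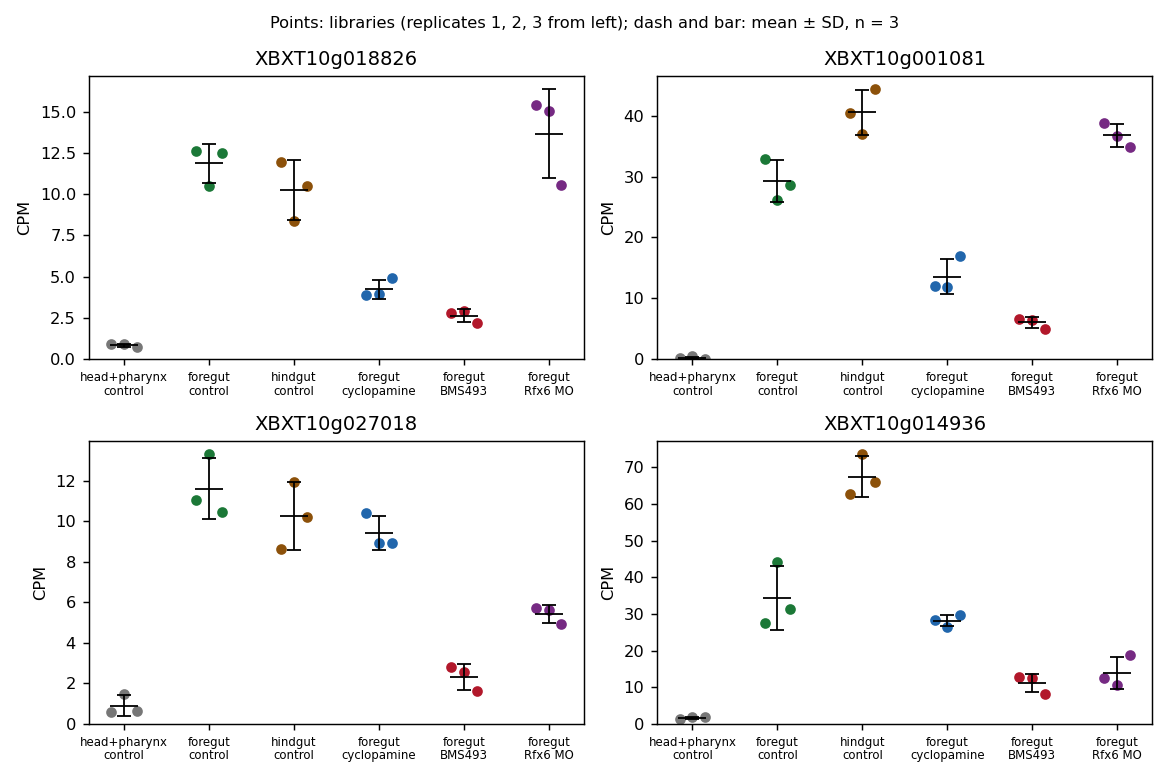
CPM of the 2 members with the largest rise and the 2 with the largest fall in Rfx6 morpholino over cyclopamine foregut, in all 18 libraries, with 1 point per library and the mean ± SD of 3 libraries per group. The upper genes are near the control foregut level with the morpholino and low under cyclopamine, and the lower genes show the reverse order.

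Members also varied between the control libraries of each gut region. Control foregut replicate 2 was the lowest of its group in 65 members and the highest in 30, and control hindgut replicate 2 was the lowest in 77 and the highest in 19. Over the 9843 genes with at least 10 CPM in both tissues, replicate 2 was lowest in 32.5% in foregut and in 33.0% in hindgut. In 64 members replicate 2 was lowest in both regions and in 18 it was highest in both. No share over the 9843 genes was computed for these counts or for those of the highest library in each region. The means of these same control libraries chose the members. The deviation of replicate 2 from the mean of replicates 1 and 3 ran from -2.81 to 0.60 in foregut and from -2.15 to 0.34 in hindgut, in log2 of CPM + 1. Across the 102 members the foregut and hindgut deviations had Pearson's r = 0.842 and Spearman's rho = 0.876. The same Pearson correlation over those 9843 genes was 0.625, and the difference was not tested. Deviations from the group means correlated at 0.413, 0.597 and 0.372 between control foregut and hindgut libraries numbered 1, 2 and 3, over 10815 genes. Between replicates 1 and 3 of the 2 regions, with different numbers, they correlated at 0.201 and 0.215. Different-numbered pairs with a replicate 2 had -0.452 to -0.401. Deviations of 3 libraries from their own mean sum to 0, so these values depend on each other and do not establish pairing. The points share their libraries, and the labels do not say whether same-numbered foregut and hindgut pools came from the same embryos. The largest ratio between control foregut libraries was 9.06 and the median ratio of the highest to the lowest was 1.40.

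**Figure D5:**
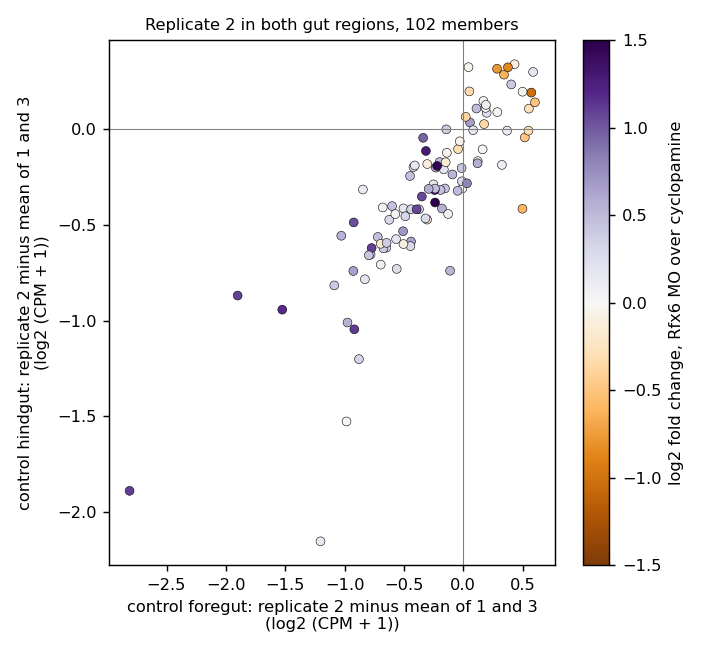
Deviation of control replicate 2 from the mean of replicates 1 and 3 in foregut (x) and in hindgut (y), in log2 of CPM + 1, for the 102 members, coloured by the log2 fold change of Rfx6 morpholino over cyclopamine. The points run from the lower left, where replicate 2 was low in both regions, to the upper right, where it was high in both.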

How the data were processed

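The 18 libraries were strand-specific and made from messenger RNA, per the labels' protocols. Estimated counts per gene were deposited by the authors as whole numbers. The submitters' processing notes name Bowtie2 and RSEM 1.3.0. The authors also deposited TPM, scaled by them for length and depth. For the genome build and annotation, no source used here gives a name. The entry without a gene name held 0% of counts.

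The members and gene lists were chosen with earlier results of these data known. Members were chosen on CPM from total counts. Tests used edgeR 4.0.16 in R 4.3.3 on the 12 foregut libraries, with TMM scaling, a minimum count of 10 and robust quasi-likelihood fitting, Benjamini-Hochberg adjustment over 18542 genes and a threshold of 0.05. The common coefficient of variation was 0.139. DESeq2 1.42.0 was an alternative. Lists fixed by symbol could not be used because no identifier matched a symbol, so the rule for genes without symbols applied: the 2 members with the largest called rise and the 2 with the largest called fall between Rfx6 morpholino and cyclopamine. The most abundant members and those at the limit of the rule are given by value, chosen after their values were seen. Genes with near-identical copies may share reads and are uncertain.

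The 18 libraries are treated as separate, although the median gene differed little between replicates 1 and 2 of the treated groups. The median chi-square of a gene between them was 2.48 to 2.77 times the value for counting noise alone, and 4.63 to 13.7 times for the other pairs. Deviations of same-numbered cyclopamine and Rfx6 morpholino libraries correlated at 0.286, 0.286 and 0.239 over 10815 genes, and those of different numbers at -0.22 to 0.079. Control foregut replicate 1 and Rfx6 morpholino replicate 2, with different numbers, reached 0.248, so these values do not establish that libraries were paired. Same-numbered control foregut libraries correlated at -0.179 to 0.193 with those of cyclopamine or the Rfx6 morpholino.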

Additional observations from a re-analysis of the deposited data

How the results depend on the processing

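Every sign of the members' median log2 fold change held under the 13 alternatives run for each comparison, from -0.66 to -0.49 for cyclopamine against control, -0.36 to -0.14 for Rfx6 morpholino against control and 0.19 to 0.40 for Rfx6 morpholino against cyclopamine. In the comparisons with control foregut, the choice of members on high control values favours a negative median in every fit. Counts of called members moved more than the medians. Leaving out 1 library gave 26 to 62 lower and 0 higher members for cyclopamine against control. Of all genes 4.82 to 11.9% were lower and 5.64 to 11.7% higher. For Rfx6 morpholino against control it gave 17 to 23 lower and 0 to 1 higher, where 4.87 to 9.65 and 4.93 to 8.36% of all genes were. For Rfx6 morpholino against cyclopamine it gave 8 to 28 higher and 2 to 6 lower, where 5.64 to 10.2 and 6.12 to 12.1% of all genes were. With replicates 1 and 2 of the treated groups summed, 15 members were lower under cyclopamine and 12 with the Rfx6 morpholino, where 2.56 and 2.95% of all genes were. Between these 2 groups 2 were higher and 0 lower, where 1.77 and 2.1% of all genes were. Fits of only the 6 libraries compared gave 43 higher and 9 lower members between Rfx6 morpholino and cyclopamine, where 14.8 and 13.6% of all genes passed. Such a fit gave 1 higher for Rfx6 morpholino against control, where 4.93% of all genes were higher. DESeq2 gave 9 lower between Rfx6 morpholino and cyclopamine, where 13% of all genes were lower. It gave 1 higher for Rfx6 morpholino against control, where 9.87% of all genes were higher. The cause of these changes was not tested, and fits with libraries left out or summed also had fewer libraries.

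With the replicate block 50 members were lower under cyclopamine and 22 with the Rfx6 morpholino, where 10.7 and 9.99% of all genes were. In these comparisons 0 members were higher, where 11.6 and 9.21% of all genes were. Between the Rfx6 morpholino and cyclopamine 22 were higher and 4 lower, where 11.3 and 12.6% of all genes were. No count changed by more than 1.5 times. The block covered all 12 foregut libraries, so it does not isolate any pairing of Rfx6 morpholino with cyclopamine libraries. Same-numbered deviations of control foregut and of cyclopamine or Rfx6 morpholino foregut correlated at -0.179 to 0.193. The rule kept 64 genes at a BMS493 limit of 0.3 and 160 at 4-fold over head with pharynx, 90 on TPM (83 of them members), 124 on TMM-scaled CPM (98 members) and 84 to 112 with 1 library left out.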

Other observations

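Among the 102 members, 2 pairs carried consecutive identifier numbers. In the first pair control foregut means were 29.2 and 21.9 CPM, BMS493 means 10.8 and 8.48 CPM and Rfx6 morpholino means 27.8 and 29.3 CPM. In the second pair they were 22.7 and 23.3, 5.55 and 5.11, and 27.9 and 30.5 CPM. Whether the numbers follow genome position, and whether reads were shared between the genes of a pair, was not examined.

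Between Rfx6 morpholino and cyclopamine foregut, the fold change of a member and the deviation of control hindgut replicate 2 from the other hindgut libraries had Pearson's r = -0.397 and Spearman's rho = -0.459 across the 102 members. The 2 measures share no library, but the hindgut libraries entered the rule, and the correlation over all genes was not computed. Hindgut replicate 2 lay above the mean of replicates 1 and 3 in each of the 5 members that were lower with the morpholino. The difference there was 0.028 to 0.317 in log2 of CPM + 1. The 21 that were higher ranged from -1.04 to 0.11 with a median of -0.28. The 76 that did not pass ranged from -2.15 to 0.34 with a median of -0.32, near that of the 21. The share of all genes above the mean was not computed.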
